A study of Drosophila melanogaster with 6 samples.

Results

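The genes described here make, activate and regulate ecdysone, the steroid that times insect moults, or move the sterol it is built from. They are spok, sro, sad, shd, mld, ecd, Start1 and Npc1a. Array rows annotated to exactly 1 of these genes were taken, with the brightest row kept where a gene had several. All 8 genes were found, each on a single row, among the 13401 genes with a row of their own. Larvae of Drosophila melanogaster of the w1118 background, aged 5 days, had fed since the egg on a semi-purified diet alone (control) or on that diet with palm fruit juice (juice). The submitters give the juice as 4 ml, and its phenolic content both as 19000 mg of gallic acid equivalents per kg of diet and as 0.86 mg per kcal. These doses are incompatible, as they would require a diet of 22093 kcal per kg. Each group had 3 single-channel Affymetrix arrays. Whole-body RNA of 3 to 4 larvae was pooled for each. The labels do not give the sex of the larvae or the sterol content of the diet.

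Flies cannot make sterols and must take them from food. In the prothoracic gland, which lies within the ring gland of the larva, dietary cholesterol passes through a chain of oxidations that ends in ecdysone. Ecdysone is released into the haemolymph, and peripheral tissues hydroxylate it to 20-hydroxyecdysone, the form that binds the receptor EcR with its partner usp. The gland is a very small part of a larva. In whole-body RNA, fewer gland cells and less transcript per gland cell cannot be told apart.

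Values are log2 expression values, so that a difference of 1 is a 2-fold change. Different rows carry different probes, and levels were compared between arrays, not between genes. Genes whose mean over all arrays fell below 2.63, the dimmest 25%, were not tested, which left 10051 genes. All 8 members passed this floor. The larval label was checked on markers. Lsp2, Fbp1 and Fbp2 of the fat body lay at 12.27 to 12.56, 9.65 to 9.98 and 11.90 to 12.43, and the salivary glue gene Sgs3 at 10.12 to 11.22. The male accessory gland genes Acp36DE, Acp26Aa and SP stayed under the floor, at 1.75 to 2.48 in every array, as did the female yolk gene Yp1 on average. Yp2 and Yp3, which also encode yolk proteins, were above it, at 2.71 to 2.98 and 3.18 to 3.87. Of the other ring gland cells, the corpus allatum gene jhamt was under the floor (2.20 to 2.43), and Akh, the hormone gene of the corpora cardiaca, measured 2.82 to 3.36. Fpps, of the terpenoid path used by the corpus allatum, measured 7.49 to 7.90. Control replicate 1 and juice replicate 2 stood apart: 536 and 440 tested genes differed there by 2-fold or more from the average of all remaining arrays, and 54 to 178 did so elsewhere.

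None of the 8 genes of hormone synthesis and sterol supply passed the test of a difference between juice-fed and control larvae. The values of the groups overlapped for each. The ratio of the juice to the control mean was highest for shd, the enzyme of the activating step, at 1.17-fold. It was lowest for mld, a transcription factor of the gland, at 0.749-fold, and there it rested on a single pool, juice replicate 2. Without that pool the log2 difference of shd was smaller too, at 0.108 against 0.228. The mean was higher with juice for 7 members and lower for 1, with a median log2 difference of 0.086; for sro and Npc1a, counted among the 7, it was 0.0034 and 0.0032. Over all tested genes 44.9% had a higher mean and the median was -0.025. The limma test, adjusted over all 10051 genes, called 0 of the 8 members (adjusted p of 0.931 to 0.999), beside 0.0% of all tested genes. At an unadjusted p under 0.05 it gave 0 members, against 470 genes or 4.68% of all. Without moderation the test again called 0 genes, with 399 at an unadjusted p under 0.05. Groups that did not overlap were seen in 10.0% of all tested genes (4.96% with juice higher and 5.08% with juice lower). Nothing in the labels says whether the pools came from separate cultures. These p-values set a difference against the spread between pools of a group, part of which may be technical.

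**Figure D1:**
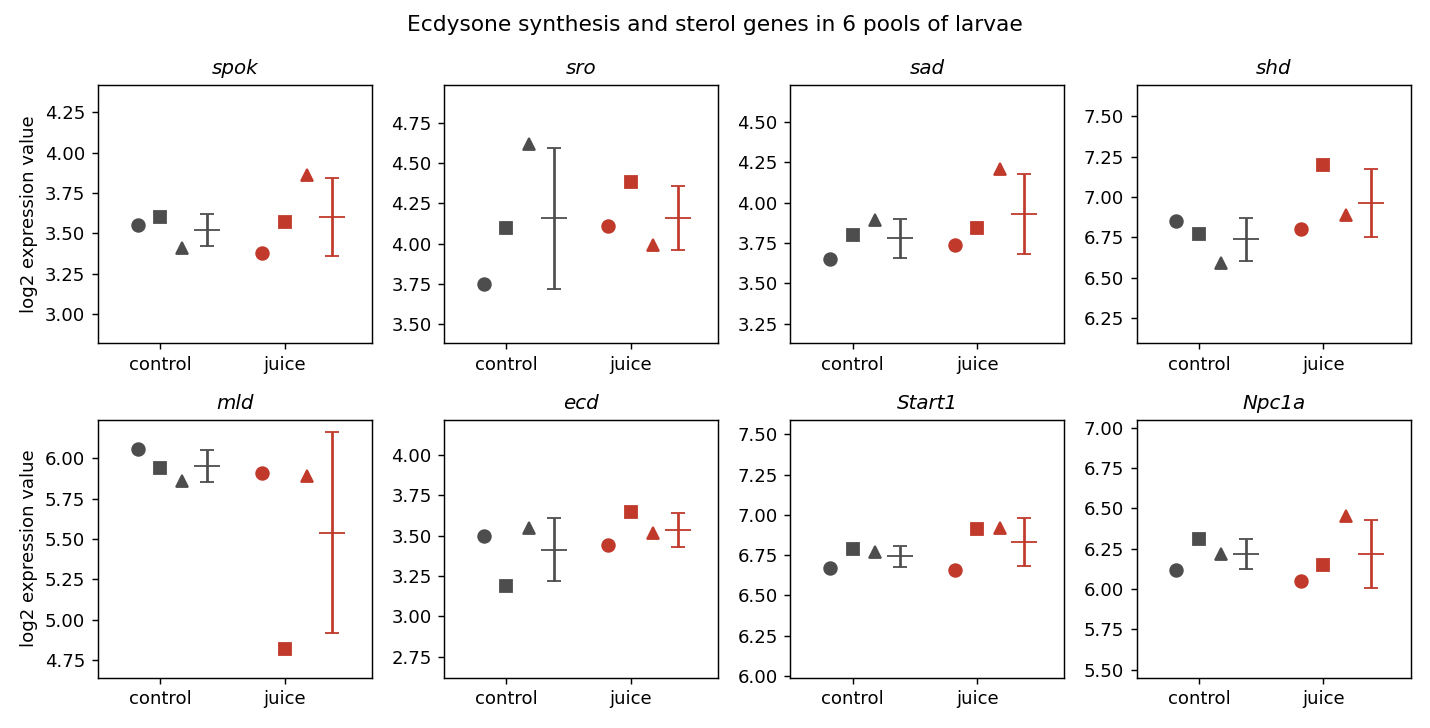
Log2 expression value (vertical axis, each panel spanning 1.6 log2 units) of the 8 genes in the 3 control and 3 juice pools. Circles, squares and triangles are replicates 1, 2 and 3, and the bar beside them is the mean ± SD of the group. The groups overlap in every panel, and the mld value of juice replicate 2, at 4.82, lies below all other mld values.

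The members spok, sro and sad are gland enzymes. The gene spok encodes a cytochrome P450 of the "black box", the poorly understood steps that follow the first desaturation of cholesterol. It measured 3.55, 3.60 and 3.41 in control replicates 1 to 3 and 3.38, 3.57 and 3.86 in juice replicates 1 to 3. Juice pools held both its lowest and its highest value. The difference was 0.08 ± 0.17 (SE), with a 95% interval of -0.31 to 0.47, or 0.809-fold to 1.39-fold. Its sign turned to -0.045 without juice replicate 3.

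The gene sro encodes a short-chain dehydrogenase that acts in the same black box. Its values were 3.75, 4.10 and 4.62 in control and 4.11, 4.38 and 3.99 in juice. Both extremes came from control pools, and all juice values lay between them. The group means were 4.16 ± 0.44 and 4.16 ± 0.20 (SD, n = 3 each), and the interval of the difference ran from -0.56 to 0.57.

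The mitochondrial P450 encoded by sad hydroxylates the steroid to ecdysone, the last reaction in the gland. It measured 3.65, 3.80 and 3.89 in control and 3.74, 3.84 and 4.21 in juice. A single value, that of juice replicate 3, stood above the control range. The difference was 0.15 ± 0.17, with an interval of 0.840-fold to 1.46-fold. Juice replicate 3 was thus the highest array for both spok and sad, but not for sro.

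Of the other enzymes of ecdysteroid synthesis and breakdown, 6 of 7 had a row of their own; phm was not analysed here. The floor removed 4 of these 6: nvd, which begins the path by desaturating cholesterol, dib, a P450 acting just before sad, Cyp6t3, another P450 of the gland, and spo, the close relative of spok used mainly in the embryo. Their values stayed between 2.10 and 2.94 in every array. The 2 tested enzymes remove the hormone, and neither passed the test. Cyp18a1, which inactivates ecdysteroids by oxidising the side chain and is itself induced by the hormone, measured 2.89, 3.01 and 4.54 in control and 3.36, 2.65 and 2.89 in juice. Control replicate 3 lay 1.58 above the mean of the other arrays, and juice replicate 1 came next. The Eo gene, for ecdysone oxidase, ranged from 4.31 to 4.67 and differed by -0.02 ± 0.16.

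The activating enzyme is encoded by shd, a mitochondrial P450 of fat body, gut and Malpighian tubules that turns ecdysone into 20-hydroxyecdysone. It measured 6.85, 6.77 and 6.59 in control and 6.80, 7.20 and 6.89 in juice. Juice replicates 2 and 3 lay above all controls, whereas juice replicate 1 lay below control replicate 1. Group means were 6.73 ± 0.13 and 6.96 ± 0.21 (SD, n = 3 each), and the difference was 0.23 ± 0.16 (limma, unadjusted p = 0.201, adjusted p = 0.931), with an interval of 0.900-fold to 1.52-fold. It was 0.108 without juice replicate 2. With the arrays quantile normalized or brought to equal medians the shd groups no longer overlapped (differences of 0.25 and 0.27), and the test still did not call the gene. Under the main scaling 10.0% of all tested genes had groups that did not overlap, and this share was not counted for the other scalings.

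Entry of the hormone into cells and its reception were covered by 4 tested genes, and none passed the test. Oatp74D, the ecdysone importer, measured 6.68, 6.49 and 6.28 in control and 6.65, 7.05 and 6.67 in juice, a difference of 0.31 ± 0.18. As for shd, its highest value came from juice replicate 2 and its lowest from control replicate 3. The receptor gene EcR differed by 0.01 ± 0.18 and its partner usp by -0.11 ± 0.25. The coactivator gene tai differed by -0.32 ± 0.19.

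The remaining members tied to hormone production are mld and ecd, measured like the others in whole larvae. The zinc finger protein encoded by mld is needed in the prothoracic gland for transcription of spok and nvd. It measured 6.06, 5.94 and 5.86 in control and 5.91, 4.82 and 5.89 in juice. Juice replicates 1 and 3 lay inside the control range, and juice replicate 2 lay 1.12 below the mean of the other arrays. In that array 239 of the tested genes, 2.38%, lay at least as far below the others as mld did. The difference was -0.42 ± 0.30 (limma, unadjusted p = 0.203), with an interval of 0.461-fold to 1.22-fold, and it was -0.056 without juice replicate 2. The spok value of juice replicate 2, 3.57, lay within the control range of 3.41 to 3.60, and nvd was under the floor on average. Any link between mld and these genes in these pools was not tested.

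The product of ecd, a conserved protein that also takes part in pre-mRNA splicing, is needed for ecdysone production. It measured 3.50, 3.19 and 3.55 in control and 3.44, 3.65 and 3.52 in juice. The lowest value was that of control replicate 2, and the other arrays spanned 3.44 to 3.65. The difference was 0.12 ± 0.15, with an interval of 0.847-fold to 1.40-fold.

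A further list held signals to the gland and regulators in it. Of its 17 genes 16 had a row of their own and 11 were tested; limma called 0, and 0 were at an unadjusted p under 0.05. The mean was higher with juice for 3 and lower for 8, with a median difference of -0.22. The genes of smallest unadjusted p were ftz-f1, Actbeta, kni and InR. The nuclear receptor gene ftz-f1 measured 4.17, 3.99 and 3.65 in control and 4.85, 4.28 and 4.21 in juice, so that all juice values lay above the controls, a difference of 0.51 ± 0.22 (limma, unadjusted p = 0.0579). Actbeta, an activin-like ligand, measured 3.45, 3.31 and 3.03 in control and 3.01, 2.61 and 2.99 in juice. Its juice values lay below all controls (difference of -0.39 ± 0.18). The transcription factor gene kni differed by -0.36 ± 0.20. The insulin receptor gene InR differed by -0.56 ± 0.31, and its value in juice replicate 2, 3.93, lay 1.24 below the mean of the other arrays. The genes of the brain hormone Ptth and its receptor tor stayed below the floor on average, as did the mld relative ouib.

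Sterol supply was represented by Start1 and Npc1a. Start1 encodes a lipid transfer protein related to vertebrate StAR proteins and expressed in the prothoracic gland. It measured 6.67, 6.79 and 6.77 in control and 6.66, 6.91 and 6.92 in juice. Juice replicates 2 and 3 lay just above the controls, and juice replicate 1 held the lowest value of all. The difference was 0.09 ± 0.14, with an interval of 0.847-fold to 1.33-fold.

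Npc1a, the fly counterpart of the Niemann-Pick type C protein, lets cholesterol leave endosomes, and larvae lacking it fail to moult. It measured 6.12, 6.31 and 6.22 in control and 6.05, 6.15 and 6.45 in juice. The juice pools spanned the whole control range and beyond. Group means were 6.22 ± 0.10 and 6.22 ± 0.21 (SD, n = 3 each), and the interval of the difference was 0.778-fold to 1.29-fold.

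In a list of other sterol and lipoprotein genes, 21 of 23 had a row of their own and 18 were tested. The mean was higher with juice for 10 and lower for 8, with a median difference of 0.035, and limma called 0. A single gene was at an unadjusted p under 0.05, on the higher side, where 2.68% of all tested genes lay. It was ninaD, a scavenger receptor for carotenoid uptake, at 2.37, 2.51 and 2.31 in control and 3.88, 2.97 and 2.78 in juice. All its control values lay below the floor of 2.63, and the gene passed the filter only through its juice values, so that its place in this count follows in part from the filter and no size is given for its difference. The next genes by unadjusted p were members of the Npc2 family, whose proteins bind sterols. Npc2c differed by 0.45 ± 0.24, Npc2f by 0.38 ± 0.21 and Npc2e by -0.53 ± 0.33, so that differences of both signs were measured within the family.

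**Figure D2:**
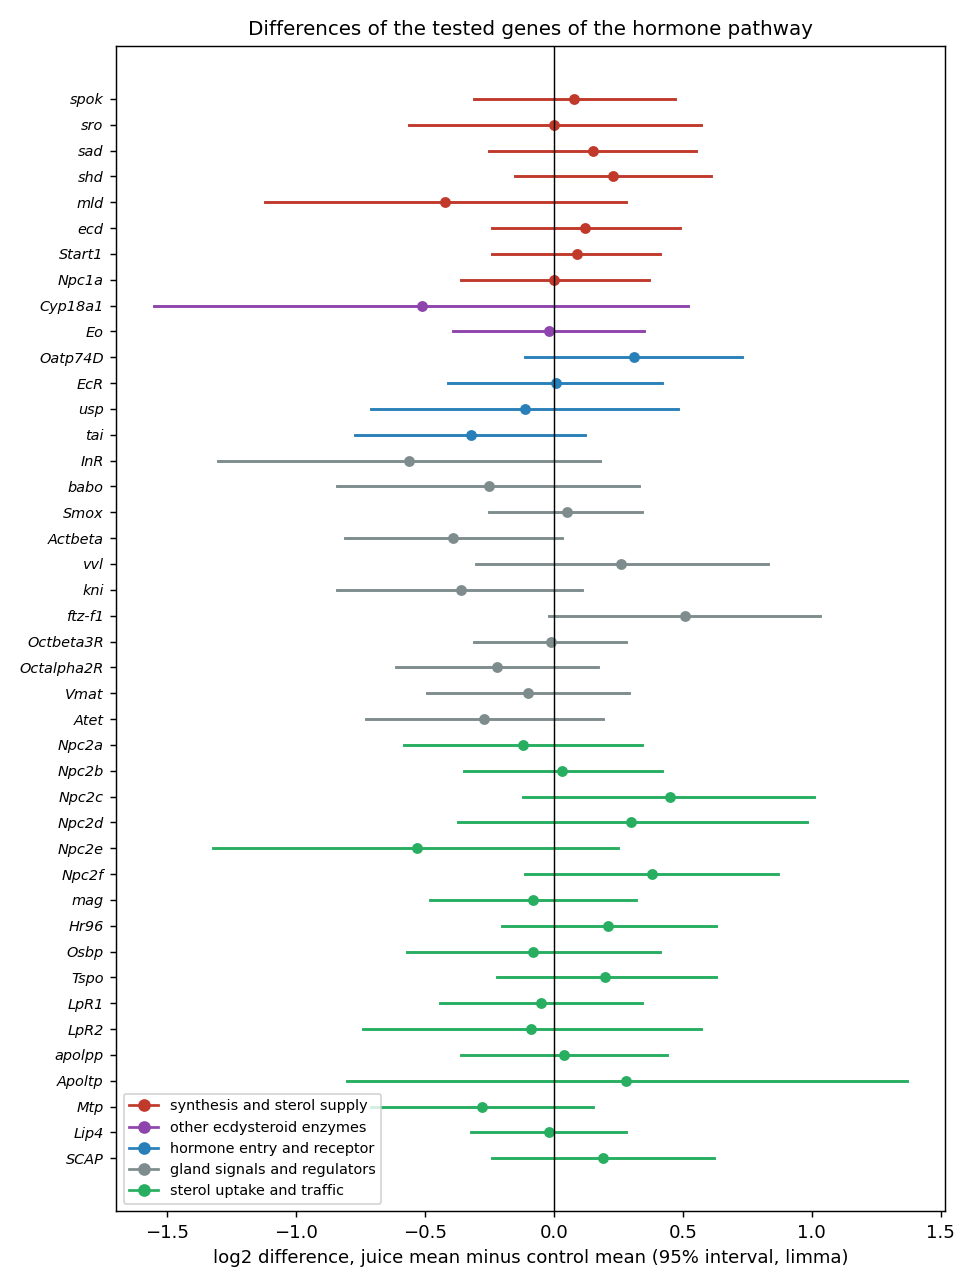
Log2 difference between the juice and control means (horizontal axis) with its 95% interval from limma, for the 8 genes of hormone synthesis and sterol supply and the tested genes of 4 related lists (vertical axis). All intervals drawn hold 0, and the differences of the 8 genes in red run from -0.42 for mld to 0.23 for shd. The gene ninaD, whose control values lie below the floor of 2.63, is left out.

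The members differed in how far pools of the same group lay apart. The pooled SD within groups was largest for mld (0.45, above that of 87.0% of tested genes) and sro (0.34, above 75.9%). It was smallest for Start1 (0.11, above 11.3%). The SDs of ecd, Npc1a, shd, spok and sad ran from 0.16 to 0.20, all below the median of tested genes, 0.23. The mld spread came from juice replicate 2, whereas that of sro was spread over the control pools. Juice replicate 3 was the highest array for 4 members, spok, sad, Start1 and Npc1a, where it was the highest for 17.4% of all tested genes. Juice replicate 1 was the lowest for 3 of them, spok, Start1 and Npc1a, where it was the lowest for 25.8% of all.

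**Figure D3:**
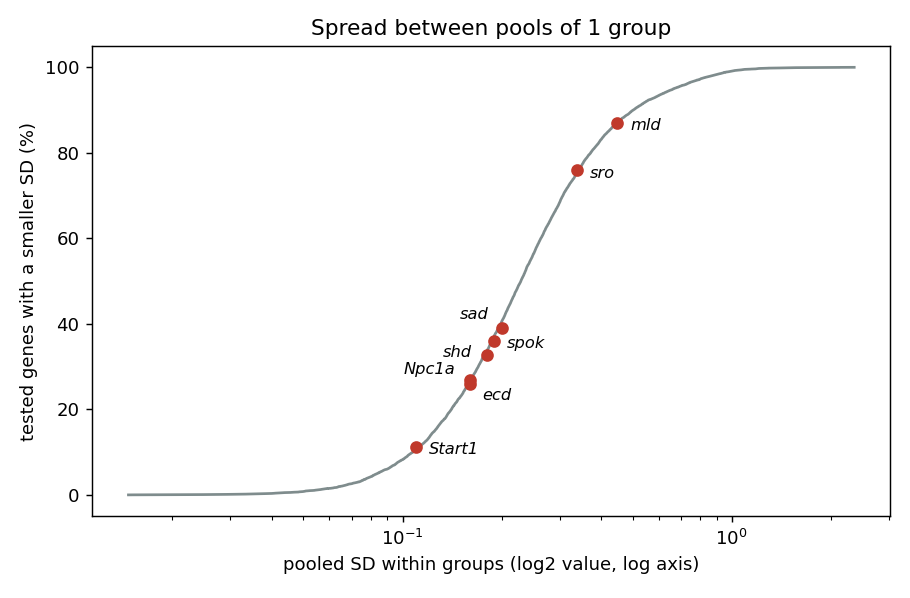
Pooled SD within groups in log2 units (horizontal, log axis) against the percentage of tested genes with a smaller SD (vertical). The grey line holds all 10051 tested genes and the red points the 8 members. Start1 lies at 11.3% and mld at 87.0%.

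The profiles nearest to a member were sought for the 3 members of largest range over the arrays, by the mean absolute distance of log2 values after each gene's own mean over the 6 arrays was taken off. Nearest to mld were Ptp69D, a receptor tyrosine phosphatase of neurons, Syp, an RNA-binding protein, and msl-1, of the dosage compensation complex, at distances of 0.03, 0.04 and 0.04. Ptp69D measured 5.42 in juice replicate 2 and 6.55 to 6.70 in the other arrays. Nearest to sro were snoRNA:Psi18S-301, spartin and CG13751, at 0.06, 0.06 and 0.07. Nearest to shd were CG12384, the cuticle protein gene Cpr51A and mEFTu2, at 0.01, 0.02 and 0.03.

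Genes that answer the hormone were measured in the same pools. Of 27 listed ecdysone response genes 21 had a row of their own and 19 were tested. The mean was lower with juice for 15 and higher for 4, with a median difference of -0.48. Limma called 0, and 5 were at an unadjusted p under 0.05, all lower, where 2.0% of all tested genes lay: ImpE1, Blimp-1, E23, ImpE2 and Hr4. The ABC transporter gene E23, induced by the hormone, measured 8.40, 7.99 and 8.77 in control and 7.89, 7.11 and 7.67 in juice, with all juice values below the controls (difference of -0.83 ± 0.27). The nuclear receptor gene Hr4, given by the brighter of its 2 rows, measured 6.44, 6.18 and 7.83 in control and 6.46, 4.02 and 4.72 in juice. Its juice replicate 1 lay inside the control range. The list was chosen with earlier results of these arrays known, and so its direction is not independent evidence.

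Single pools stood out in this list. Juice replicate 2 was the lowest array for 14 of the 19 response genes, where it was the lowest for 23.2% of all tested genes. The low mld value was in this array too, as 1 of 321 tested genes there at least 2-fold below the other arrays. Without juice replicate 2 the median difference of the list was -0.23, with 13 genes lower and 4 at an unadjusted p under 0.05 in limma. The share of all tested genes at that level was not counted without this pool, so the 4 cannot be set against a background. Control replicate 3, in which Cyp18a1 and sro were at their highest, was the highest array for 7 of the 19, against 17.1% of all. Of 10 tested salivary glue and new glue genes, which mark stages of late larval life, 7 had a lower mean with juice and 3 a higher one, and limma called 0. The 3 with a higher mean were ng1, ng2 and ng3, each highest in juice replicate 1. The differences of ng2 and ng3 were 1.48 ± 0.71 and 1.06 ± 0.73. The gene ng1 passed the filter only through juice replicate 1. Its place in this count thus follows in part from the filter, and no size is given for its difference. At an unadjusted p under 0.05 were 2, both lower, where 2.0% of all tested genes lay: Sgs4 (difference of -0.60 ± 0.19) and Eig71Ee (-0.60 ± 0.22). Each was lowest in juice replicate 2, as were Sgs1 and Sgs3. Sgs5, Sgs7 and Sgs8 were lowest in juice replicate 1, and their values in juice replicate 2 lay inside the control range. The fat body genes Lsp2, Fbp1 and Fbp2 all had a lower mean with juice, and limma called 0. Groups did not overlap for Fbp1 and Fbp2, where 5.08% of all tested genes lay with juice lower. The part of the pools' stage in these values was not tested.

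**Figure D4:**
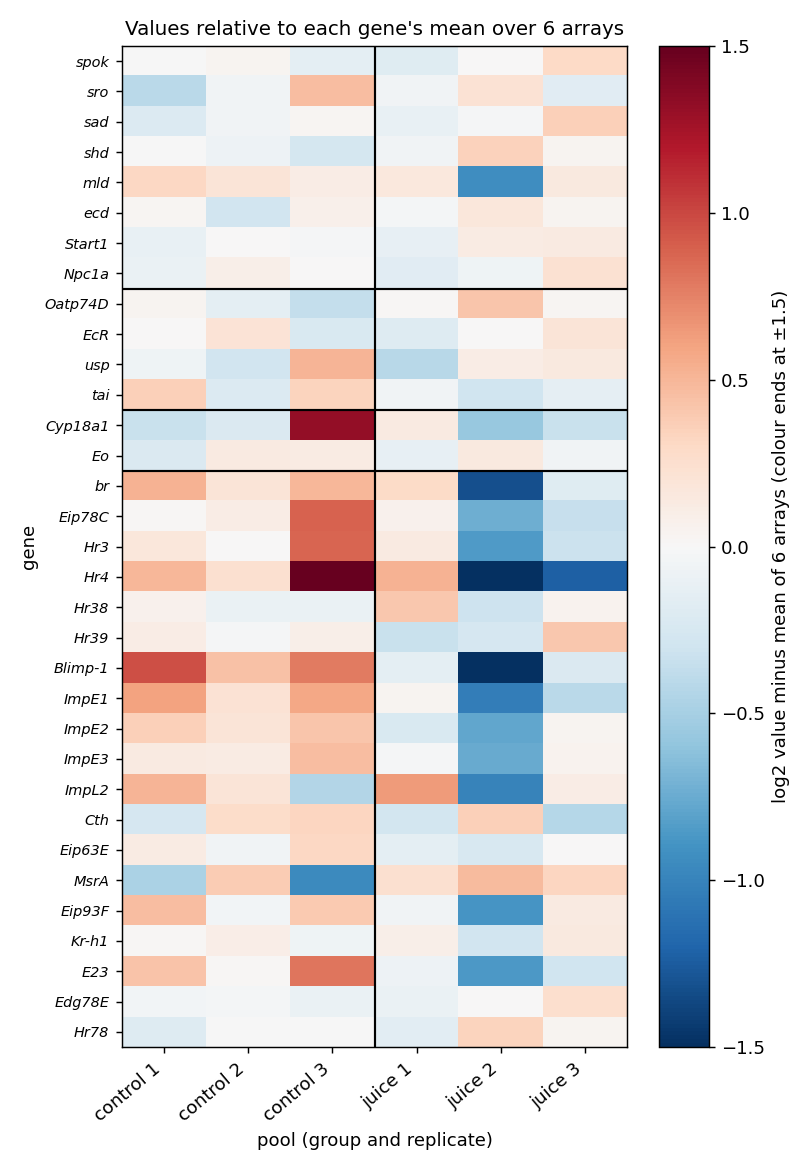
Log2 value of each gene minus its mean over the 6 arrays, by pool (columns) and gene (rows), with the colour scale ending at 1.5 either way. From top to bottom the blocks hold the 8 members, hormone entry and reception, hormone breakdown and the ecdysone response. Among the members the mld value of juice replicate 2 is the strongest colour. Juice replicate 2 is the lowest array for 14 of the 19 response genes and for 23.2% of all tested genes.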

How the data were processed

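RNA of 6 pools of larvae was measured on single-channel arrays. Per the labels' protocols, biotin-labelled cDNA was made from 100 ng of total RNA. The authors deposited 1 log2 expression value per row and array. RMA is named in the submitters' processing notes, as is version 1.4.0.38 of Affymetrix Expression Console. The order of steps is not given in the sources used here. RMA as generally defined brings all arrays to a common distribution. The medians of the deposited arrays still ran from 3.60 to 3.77. After each tested gene's mean over the 6 arrays was taken off, juice replicate 1 had a median of -0.083. The other arrays had medians of -0.020 to 0.040.

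Of 16322 rows, 13440 had 1 gene in the platform annotation, and 13063 of these were found in a RefSeq gene table of Release 6 plus ISO1 MT. That table served for names only. The brightest row per gene was kept. Juice and control were compared in limma (version 3.58.1, R 4.3.3; lmFit, then eBayes). The adjustment (Benjamini-Hochberg) ran over 10051 genes, with a call at adjusted p under 0.05. Differences are juice minus control, with moderated SEs.

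The members, gene lists and tests were chosen with earlier results of these data known. By rule, named genes are all members, up to 4 genes of smallest unadjusted p per list or any under 0.05, genes of the enzyme, receptor, ring gland and adult marker lists, larval markers, and 3 nearest profiles for 3 members. Outside this rule, Ptth, tor and ouib, which were not tested, and Apoltp, ng1, ng2, ng3, Sgs5, Sgs7 and Sgs8 were named after their values were seen. Same-numbered arrays did not deviate together (correlations of -0.108, -0.0738 and -0.0816), and replicates were not paired. Alternatives were each array left out, other filters, scalings, variance models, averaged rows and the replicate block; leaving out control replicate 1 and juice replicate 2 together was added after seeing the data. The precision is limited by the number of arrays.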

Additional observations from a re-analysis of the deposited data

How the results depend on the processing

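No member was called, or reached an unadjusted p under 0.05, under any of the 15 alternatives run. The differences of sad, shd, mld and Start1 kept their sign under all 15, and that of ecd under the 14 that gave it a value, but several came close to 0: sad to 0.0061 without juice replicate 3, ecd to 0.012 without control replicate 2, Start1 to 0.0423 without juice replicate 3 and to 0.0122 without the pair of arrays that stood apart (control replicate 1, juice replicate 2), and mld to -0.002 without that pair. The genes spok and ecd have no value with the dimmest 50% of genes left out. Leaving out 1 array at a time moved the mld difference between -0.604 and -0.056 and that of shd between 0.108 and 0.31. Signs turned for differences near 0: sro to -0.201 without control replicate 1, -0.0255 without control replicate 2, -0.107 without juice replicate 2 and -0.312 without the pair; Npc1a to -0.0458 without control replicate 1, -0.113 without juice replicate 3 and -0.0133 without the pair; spok to -0.0448 without juice replicate 3. With each array left out in turn the highest values were 0.237 for sro, 0.0864 for Npc1a and 0.199 for spok. The median member difference ran from 0.0242 to 0.173 with 1 array left out. The count of members whose groups did not overlap, 0 of 8, ran from 0 to 2 with 1 array left out, and was 1 after quantile normalization, with equal array medians and without the pair, shd in each of these 3. The share of all tested genes without overlap was not counted under these settings. Groups of fewer arrays also fail to overlap more easily, so these counts cannot be set against the 10.0% of the full design. Over all genes, 0 to 4 were called with 1 array left out, the 4 without juice replicate 3, none of them a gene of the lists or a member.

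Of 71 tested genes of the related lists, 8 were at an unadjusted p under 0.05 in limma, beside 4.68% of all tested genes. Of these, 5 were ecdysone response genes, 2 glue genes and 1 ninaD. The lists were chosen with earlier results of these arrays known, so the count is not independent evidence. It was 5 to 13 with 1 array left out, and 3 without moderation, where 399 of all 10051 tested genes were at that level. With the replicate number as a block the count was 13, and the block changed no call, with 0 of all tested genes called. The share of all tested genes at this level was not counted with an array left out or with the block. The cause of these shifts was not tested. Scaling moved the median of all genes from -0.03 to 0.00 (quantile) or 0.02 (equal medians).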

Other observations

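The new glue genes ng1, ng2 and ng3, salivary gland genes used earlier in the last larval stage than the main glue genes, stood high in a single juice pool. In juice replicate 1 ng1 measured 8.12, against 2.07 to 2.93 in the other arrays, ng2 measured 6.34 against 2.62 to 4.17, and ng3 measured 6.67 against 3.17 to 4.31. Juice replicate 1 was the highest array for 12 of the 71 tested genes of the related lists, or 16.9%, and for 9.81% of all tested genes. Those 12 included ng1, ng2 and ng3, and Apoltp, a lipid transfer lipoprotein gene at 4.80 there and 2.99 to 3.77 elsewhere. A larger share than over all genes was not particular to this pool. Control replicate 3 was the highest array for 20 of the 71, or 28.2%, against 17.1% of all tested genes. Juice replicate 2 was also the highest for 12 of the 71, there a smaller share than over all tested genes. The genes of this paragraph were named after their values were seen.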
